A study of Mus musculus with 15 samples.

Results

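The Hedgehog receptor Ptch1, the co-receptors Boc and Cdon, the ligand-binding inhibitor Hhip, the signal transducers Smo and Sufu, and the transcription factors Gli1, Gli2 and Gli3 were followed across 5 groups of mouse submandibular salivary gland. These 9 genes were listed by symbol for their known place in the pathway, out of 39179 genes in the count tables. RNA came from glands of adult male C57BL/6 mice of wild-type background, and 3 libraries per group were sequenced. The IR+Shh, IR+Gli1 and IR+GFP glands received the Shh, Gli1 or green fluorescent protein gene by transfer into the gland, and were taken 7 days after local irradiation. The IR glands were irradiated and taken at the same day without gene transfer, and the NT glands were not treated. Irradiation was therefore shared by all groups but NT, and IR+GFP is the control for gene transfer. The carrier of the genes, their species or sequence and the radiation dose are not given in the labels.

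In the Hedgehog pathway, Ptch1 keeps the membrane protein Smo inactive until a ligand such as Shh binds Ptch1, a step that Boc and Cdon assist. Active Smo acts at the primary cilium to free the Gli proteins from Sufu; Gli2 is the main activator and Gli3 is mostly processed to a repressor. Gli1, Ptch1 and Hhip are induced by the pathway, and Ptch1 and Hhip restrain it in turn, since both bind the ligand. In salivary glands the pathway is known from branching of the embryonic gland.

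Each library held 18205941 to 41064723 reads in genes. Within every group, 2 of the 3 libraries had counts closer to each other than sampling noise allows (chi-square per gene 0.215 to 0.337, against 22.0 to 223 for the remaining pairs), and such libraries were counted as 1 sample. This left n = 2 samples per group and 10 in all. The labels do not say whether these came from separate animals, so p-values measure the spread between these samples. Levels are in CPM, the reads of a gene relative to the reads of its library, scaled by the TMM method, and within each group the combined pair is given before the single library. Granular tubule markers, which define the adult male submandibular gland, summed to 27640 CPM or more in every sample. Sublingual gland markers summed to 17450 CPM in 1 NT sample and 8.64 CPM in the other.

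The transferred genes were looked for first. Shh had 0 reads in all 15 libraries, the 3 of IR+Shh included; at these depths, the limit that a count of 0 sets is 0.0731 to 0.165 CPM. Gli1 had 0.540 and 0.671 CPM in the samples labelled IR+Gli1, against 0.767 and 0.553 CPM in IR+GFP. The Gli1 counts thus did not show the transfer that the label IR+Gli1 names, and the difference between these groups on the log2 scale, -0.16 ± 0.37 (SE), turned to 0.63 when libraries were scaled by total gene reads. That scaling placed the median of all genes at 0.79, so that Gli1 lay 0.17 below the median with TMM scaling and 0.17 below it with total reads.

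The mouse annotation gives the places of the genes (GRCm38). Among the receptors, Ptch1 (ENSMUSG00000021466) lies at chr13:63508328-63573598 on the minus strand, Boc (ENSMUSG00000022687) at chr16:44485049-44558897 on the minus strand and Cdon (ENSMUSG00000038119) at chr9:35421128-35507652 on the plus strand. Hhip (ENSMUSG00000064325) lies at chr8:79965851-80058006 on the minus strand. The transducers Smo (ENSMUSG00000001761) and Sufu (ENSMUSG00000025231) lie on the plus strand at chr6:29735503-29761365 and chr19:46396896-46488804. Gli1 (ENSMUSG00000025407) lies at chr10:127329882-127341974 and Gli2 (ENSMUSG00000048402) at chr1:118834132-119053619, both on the minus strand. Gli3 (ENSMUSG00000021318) lies at chr13:15463235-15730026 on the plus strand. Gli factors recognise the sequence GACCACCCA, whose reverse complement is TGGGTGGTC, and the 250 bases before each gene's start in RefSeq (GRCm38.p6) were searched on both strands.

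Of the 9 genes, 7 had a start in that table; Gli1 and Boc had none. The whole sequence was in none of the 7 windows and in 0.225% of 32851 windows of the same length over all genes. Its core CCACCC, or GGGTGG on the other strand, was in the windows of Gli2, Gli3, Hhip and Smo, 4 of 7, against 28.1% of all windows. A core match is a description of the letters and was not tied to binding. The windows of the 2 feedback inhibitors and of Gli2, which carries the core in both orientations, are shown 5′ to 3′ on the strand of the gene, with the core in capitals. They span chr13:63565736-63565985 (Ptch1), chr8:80058009-80058258 (Hhip) and chr1:119053620-119053869 (Gli2), all on the minus strand. The Ptch1 window belongs to a start inside the span of the gene.
Ptch1: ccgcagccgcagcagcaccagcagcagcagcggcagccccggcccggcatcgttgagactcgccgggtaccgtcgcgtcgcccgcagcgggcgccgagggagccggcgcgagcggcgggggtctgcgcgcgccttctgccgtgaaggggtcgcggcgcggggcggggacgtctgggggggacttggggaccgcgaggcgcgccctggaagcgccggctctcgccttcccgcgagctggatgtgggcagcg
Hhip: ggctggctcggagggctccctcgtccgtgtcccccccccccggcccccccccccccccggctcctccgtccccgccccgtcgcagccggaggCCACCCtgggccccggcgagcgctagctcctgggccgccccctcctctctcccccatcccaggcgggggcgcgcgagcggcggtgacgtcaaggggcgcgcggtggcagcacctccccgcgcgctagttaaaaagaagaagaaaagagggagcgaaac
Gli2: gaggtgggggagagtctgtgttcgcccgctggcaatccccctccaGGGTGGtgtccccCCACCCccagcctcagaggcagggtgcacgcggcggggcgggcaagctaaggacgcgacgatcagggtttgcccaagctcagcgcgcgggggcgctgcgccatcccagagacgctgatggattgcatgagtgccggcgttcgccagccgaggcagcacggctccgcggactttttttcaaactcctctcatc

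Per kilobase of exon, which allows genes to be compared, the order of levels in NT glands was Boc (4.16 ± 0.0369 CPM per kb), Smo (3.07 ± 0.0434), Sufu (1.25 ± 0.0370), Cdon (1.15 ± 0.198), Ptch1 (0.610 ± 0.135), Gli1 (0.112 ± 0.0131), Gli3 (0.103 ± 0.0163) and Gli2 (0.0425 ± 0.0148), each with its SD (n = 2), and Hhip had no read. The length used was that of all annotated exons of a gene together, not that of a transcript. It was 14185 bases for Ptch1 and 4995 bases for Gli1, so the order depends on the annotation. Sufu and Cdon, and Gli1 and Gli3, were neighbours that did not differ beyond their spread. The receptor side and the transducers were thus read far more deeply than the Gli factors: in NT glands, Smo had 465 and 574 reads, while Gli1 had 14 and 20 reads. In IR+Shh glands the order was the same apart from Gli2 (0.0852 ± 0.0313 CPM per kb), which stood above Gli3 (0.0446 ± 0.0184). Gli1 was there at 0.693 ± 0.220 CPM per kb, within its spread of Ptch1 at 0.846 ± 0.0642 CPM per kb.

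**Figure D1:**
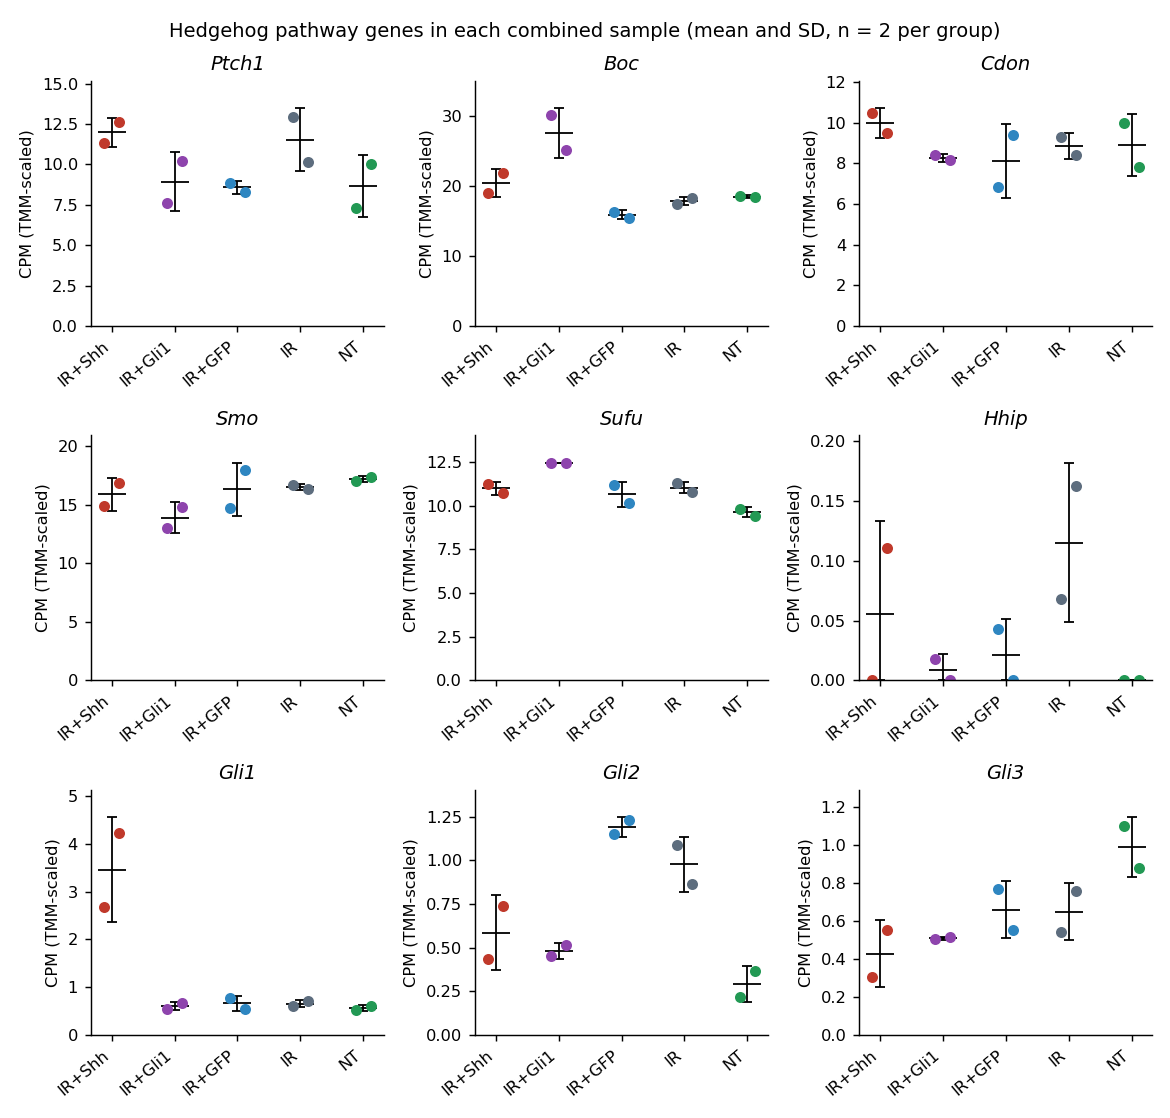
Level of each of the 9 genes in CPM (TMM-scaled, vertical axes from 0) by group; points are the 2 samples of a group, the bar is the mean and the whiskers are 1 SD, drawn no lower than 0. Gli1 stands at 2.69 and 4.24 CPM in IR+Shh with all other samples under 1 CPM, and Boc is highest in the samples labelled IR+Gli1.

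Gli1, both a Hedgehog target and a Gli factor, was highest in IR+Shh glands, at 2.69 and 4.24 CPM. It had 0.540 and 0.671 CPM in samples labelled IR+Gli1, 0.767 and 0.553 CPM in IR+GFP, 0.611 and 0.703 CPM in IR and 0.514 and 0.606 CPM in NT. Both IR+Shh samples lay above every other sample, and the other 4 groups overlapped one another apart from IR and NT, where the lowest IR sample was just above the highest of NT. IR+Shh averaged 3.46 ± 1.10 CPM, against 0.606 ± 0.0927 CPM in IR+Gli1 (SD, n = 2 each), a log2 fold change of 2.53 ± 0.34 (SE) or 5.77-fold with a 95% interval of 3.39 to 9.80, which passed edgeR's quasi-likelihood test with an adjusted p of 0.00879. Leaving out an IR+Shh sample leaves 1 in that group, which is then taken to vary like the other groups. Without the combined sample IR+Shh 1+3 the log2 fold change was 2.82 with an adjusted p of 0.0507, and without IR+Shh 2 it was 2.16 with an adjusted p of 0.109.

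Set against IR+GFP, at 0.660 ± 0.151 CPM, Gli1 in IR+Shh was 2.37 ± 0.35 higher on the log2 scale, or 5.16-fold (95% interval 2.98 to 8.93). This difference did not pass after adjustment over 14300 genes (edgeR adjusted p = 0.330, unadjusted p = 6.93e-05). It passed with DESeq2 (adjusted p = 0.0166) and with IR and IR+GFP together as the control (2.39, adjusted p = 0.0408), and over all the alternatives run the log2 value ranged between 2.002 and 2.66. In single libraries, Gli1 had 77, 115 and 48 reads in IR+Shh 1, 2 and 3, against 25, 12 and 9 reads in IR+GFP 1, 2 and 3. All 3 IR+Shh libraries were above all 3 IR+GFP libraries. Of these, IR+Shh 1 and 3, and IR+GFP 1 and 2, are near-identical pairs, so each group holds n = 2 samples.

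The spans of Gli1 and Arhgap9, a gene on the opposite strand, share 62 bases, and shared exon bases were not counted. The strand setting of the counting is not given in the sources used here. Reads in the shared bases therefore cannot be assigned to either gene. Arhgap9 was at 22.3 and 21.0 CPM in IR+Shh. It had 29.0 and 30.9 CPM in the samples labelled IR+Gli1, against 22.9 and 27.5 CPM in IR+GFP. Arhgap9 was thus not higher in IR+Shh, with log2 fold changes of -0.22 against IR+GFP (edgeR adjusted p = 0.822) and -0.47 against IR+Gli1 (adjusted p = 0.0391). In whole glands, fewer cells of a type and less RNA per cell cannot be told apart. Fibroblast markers summed to 217 to 296 CPM in IR+Shh, 155 to 212 CPM in IR+Gli1, and in IR+GFP to 173 to 236 CPM, with none of the 12 at 0 reads; of 11 tested, 1 was higher in IR+Shh than in IR+Gli1.

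Some other marker sums of IR+Shh lay apart from those of IR+Gli1 and IR+GFP. NT overlapped IR+Shh on macrophage markers, at 125.4 to 151.1 CPM, but not on T and NK cell or granular tubule markers. Macrophage markers summed to 150.5 to 158 CPM in IR+Shh and 226 to 229 CPM in IR+Gli1, against 78.0 to 112 CPM in IR+GFP. T and NK cell markers summed to 5.82 to 6.02 CPM in IR+Shh and 20.1 to 49.5 CPM in IR+Gli1, against 1.66 to 4.06 CPM in IR+GFP. Granular tubule markers summed to 86360 to 96370 CPM in IR+Shh and 27640 to 53430 CPM in the samples labelled IR+Gli1, against 123900 to 141000 CPM in IR+GFP. IR+Shh thus lay between the other 2 groups on all 3 sums. No marker of the 13 lists passed in IR+Shh against IR+GFP, where 0.0% of all genes did. In IR+Shh against IR+Gli1, where 7.76% of all genes passed, 1 macrophage marker was higher and 3 of 8 lower, 2 of 5 T and NK cell, 1 of 8 duct and 1 of 7 basal and myoepithelial markers were lower, and 2 of 10 acinar and 1 of 7 granular tubule markers were higher. With total reads no macrophage marker was higher and 5 of 8 were lower, beside 56.0% of all genes. Of the T and NK cell markers 4 of 5 were lower, and of the duct markers 7 of 8. So were 6 of 8 endothelial, 4 of 7 basal and myoepithelial, 3 of 8 pericyte and 1 of 8 Schwann and neural markers. Of the granular tubule, acinar and fibroblast markers, 1 each was higher and 1 each lower, and 1 adipocyte marker was higher. The part of these cells in the Gli1 level was not tested.

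Ptch1, the receptor and a feedback target, had 11.4 and 12.6 CPM in IR+Shh and 7.63 and 10.2 CPM in IR+Gli1, against 8.87 and 8.30 CPM in IR+GFP. It had 12.9 and 10.2 CPM in IR and 7.30 and 10.0 CPM in NT. The IR+Shh samples lay above those of IR+Gli1, IR+GFP and NT but between those of IR. The log2 fold change of IR+Shh against IR+GFP was 0.48 ± 0.20 (SE; edgeR adjusted p = 0.814), and with IR and IR+GFP together as the control it was 0.25. Against IR+Gli1 it was 0.43 ± 0.20 (adjusted p = 0.203).

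The ratio of Gli1 to Ptch1 reads within a sample does not depend on the scaling of libraries. IR+Shh had 62 Gli1 reads beside 262 Ptch1 reads and 115 beside 343, ratios of 0.237 and 0.335. The ratios were 0.0708 and 0.0656 in IR+Gli1, 0.0865 and 0.0667 in IR+GFP, 0.0474 and 0.0691 in IR, and 0.0704 and 0.0606 in NT. The IR+Shh samples thus stood apart from the other 8, with a mean ratio of 0.286 ± 0.0698 against 0.0766 ± 0.0141 in IR+GFP (SD, n = 2 each). As a share of the reads of both genes, Gli1 took 19.1% (95% exact binomial interval 15 to 23.9) and 25.1% (21.2 to 29.3) in IR+Shh, and 7.96% (4.79 to 12.3) and 6.25% (2.90 to 11.5) in IR+GFP. Such intervals cover counting error only and are approximate for combined samples.

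**Figure D2:**
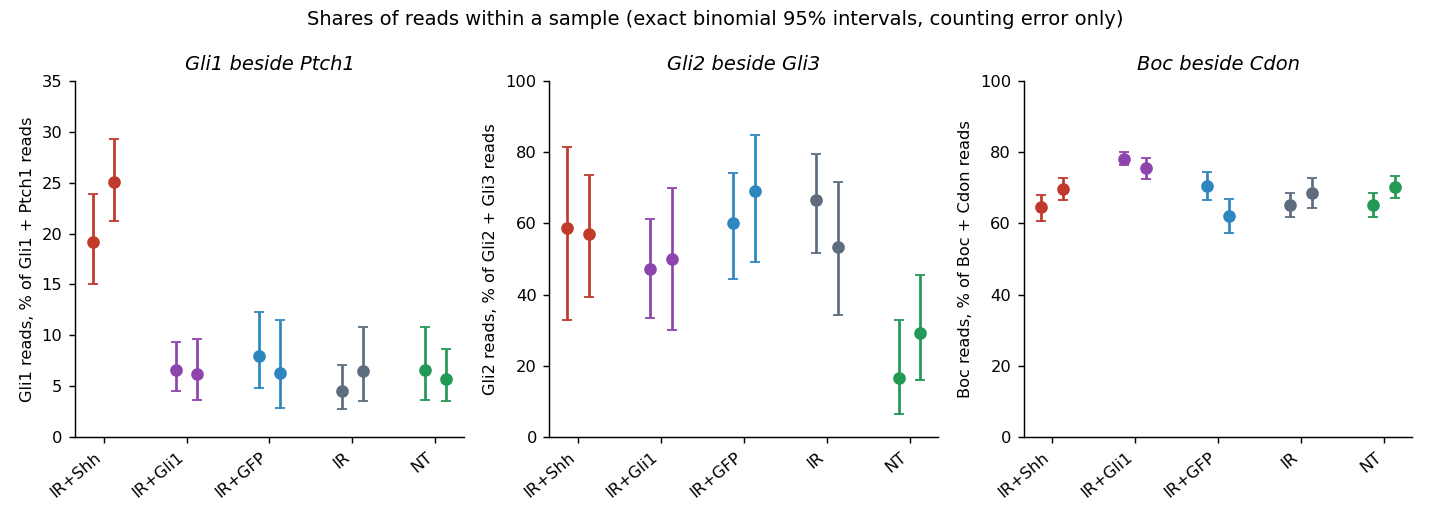
Share of the reads of a gene pair taken by the first gene, in percent, for Gli1 beside Ptch1, Gli2 beside Gli3 and Boc beside Cdon; points are samples (2 per group) and whiskers are exact binomial 95% intervals. Gli1 takes 19.1% and 25.1% in IR+Shh and at most 7.96% elsewhere, Gli2 takes 16.7% and 29.3% in NT and 47.2% or more elsewhere, and Boc takes 78.2% and 75.5% in the samples labelled IR+Gli1.

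Hhip, a membrane protein that binds and sequesters the ligand, did not pass the filter on low counts and was not tested. Its reads were 0, 3 and 0 in the IR+Shh libraries, 1, 1 and 0 in IR+Gli1, 1, 1 and 0 in IR+GFP, 3, 2 and 3 in IR, and 0 in each NT library. No library exceeded 3 reads, and no difference in Hhip was detectable at this depth.

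Boc, the co-receptor, had 30.1 and 25.1 CPM in the samples labelled IR+Gli1, against 16.4 and 15.5 CPM in IR+GFP. It had 19.1 and 21.9 CPM in IR+Shh, 17.5 and 18.3 CPM in IR, and 18.6 and 18.4 CPM in NT. Both samples labelled IR+Gli1 lay above all others. Boc rose by 0.79 ± 0.12 (SE) on the log2 scale in IR+Gli1 against IR+GFP, 1.73-fold with a 95% interval of 1.44 to 2.09, and passed edgeR's test with an adjusted p of 0.00533. Scaling by total gene reads gave 1.60, which was 0.81 above the median of all genes under that scaling. Without the combined sample IR+GFP 1+2, which leaves 1 IR+GFP sample taken to vary like the other groups, it was 0.83 with an adjusted p of 0.0634. The call held under the other 18 of 19 alternatives. Among these were total-read scaling, under which 67.5% of all genes were higher in IR+Gli1, and fits that count near-identical libraries as separate.

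Boc was also the gene whose difference from IR+Gli1 in IR+Shh came nearest to the threshold after Gli1, at -0.43 ± 0.12 (SE; edgeR adjusted p = 0.0548). Leaving out IR+Gli1 3 gave -0.55 with an adjusted p of 0.0154, and leaving out the combined sample IR+Gli1 1+2 gave -0.28 with an adjusted p of 0.286. IR+Shh against IR+GFP gave 0.36 ± 0.12 (adjusted p = 0.808). Boc took 41.2% and 34.7% of the reads of the 9 genes in IR+Gli1, against 27.0% and 24.4% in IR+GFP, and 24.99% to 28.8% in the samples of IR+Shh, IR and NT.

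Cdon, the related co-receptor, had 10.5 and 9.47 CPM in IR+Shh and 8.39 and 8.13 CPM in IR+Gli1, against 6.82 and 9.41 CPM in IR+GFP. It had 9.31 and 8.38 CPM in IR and 9.98 and 7.82 CPM in NT. The IR+Shh samples lay above those of IR+Gli1, IR+GFP and IR but overlapped NT. Its log2 fold change in IR+Gli1 against IR+GFP was 0.03 ± 0.18 (SE; edgeR adjusted p = 0.936). The ratio of Boc to Cdon reads was 3.59 and 3.09 in IR+Gli1 and 2.40 and 1.65 in IR+GFP. It lay between 1.82 and 2.35 in the samples of IR+Shh, IR and NT, so that the IR+Gli1 samples were highest on a measure that needs no scaling.

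Markers of other cells moved along with Boc in the samples labelled IR+Gli1, where 13.9% of all genes passed against IR+GFP. With the sums given above, 4 of 8 macrophage and 3 of 5 tested T and NK cell markers rose, and 1 of the 8 listed T and NK cell markers was at 0 reads in IR+GFP. Of the granular tubule markers, 5 of 7 fell. Endothelial markers summed to 47.0 to 54.7 CPM in IR+Gli1 against 32.6 to 39.5 CPM in IR+GFP, and 1 of 8 rose. Basal and myoepithelial markers summed to 604 to 797 CPM in IR+Gli1 against 848 to 869 CPM in IR+GFP, while 3 of 7 tested rose. Acinar markers summed to 8622 to 36990 CPM in IR+Gli1 against 22060 to 46970 CPM in IR+GFP. Of these markers 2 of 10 fell, with a median log2 fold change of -1.94 over the 10. Sublingual gland markers summed to 5.58 to 6.59 CPM in IR+Gli1 against 10.45 to 112.8 CPM in IR+GFP, and 1 of 5 tested fell. The acinar and sublingual lists share Muc19, and the part of sublingual tissue in the acinar values was not tested. Of the fibroblast markers, 0 of 11 passed. Pericyte and smooth muscle markers summed to 156 to 241 CPM in IR+Gli1 against 297 to 324 CPM in IR+GFP, while 1 of 8 rose. With total reads, 67.5% of all genes were higher in IR+Gli1. So were 6 of 8 macrophage, 5 of 5 T and NK cell, 7 of 8 endothelial and 7 of 8 duct markers. Higher too were 5 of 7 basal and myoepithelial, 4 of 8 pericyte, 3 of 8 Schwann and neural and 2 of 11 fibroblast markers. The granular tubule count was the same under that scaling, and of the acinar markers none was lower and 1 higher. The part of these cells in the Boc level was not tested.

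Smo, the transducer that Ptch1 restrains, had 14.9 and 16.9 CPM in IR+Shh and 13 and 14.9 CPM in the samples labelled IR+Gli1, against 14.8 and 18.0 CPM in IR+GFP. It had 16.7 and 16.3 CPM in IR and 17.1 and 17.4 CPM in NT. The IR+Gli1 samples overlapped those of IR+GFP, met those of IR+Shh within rounding and lay below those of IR and NT, and the highest sample of Smo was 1.38 times its lowest. None of its 5 fitted differences passed; in IR+Shh against IR+GFP it was -0.03 ± 0.13 on the log2 scale, with a 95% interval of -0.33 to 0.26. Sufu, which holds Gli proteins in the cytoplasm, had 11.3 and 10.7 CPM in IR+Shh and 12.5 and 12.4 CPM in IR+Gli1, against 11.2 and 10.1 CPM in IR+GFP. Sufu had 11.3 and 10.8 CPM in IR and 9.83 and 9.43 CPM in NT, so that IR+Gli1 held its highest samples and NT its lowest, 1.32 times apart at the extremes. Sufu in IR+Shh against IR+GFP differed by 0.04 ± 0.12, with an interval of -0.22 to 0.30, and none of its 5 differences passed.

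Gli2, the main activator among the Gli factors, had 0.433 and 0.737 CPM in IR+Shh and 0.450 and 0.513 CPM in IR+Gli1, against 1.15 and 1.23 CPM in IR+GFP. It had 1.09 and 0.865 CPM in IR and 0.220 and 0.364 CPM in NT. The IR and IR+GFP samples lay above those of the other 3 groups. In IR against NT the log2 fold change was 1.72 ± 0.43 (SE), 3.29-fold with a 95% interval of 1.69 to 6.42, and it did not pass (edgeR adjusted p = 0.103, unadjusted p = 0.00277). It was 1.42 without NT 2+3 and 2.14 without NT 1, the adjusted p being 0.330 and 0.0875. In IR+Gli1 against IR+GFP Gli2 differed by -1.31 ± 0.40 (adjusted p = 0.0611), and in IR+Shh against IR+GFP by -1.01 ± 0.41 (adjusted p = 0.808). These last comparisons share the IR+GFP samples.

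Gli3, mostly a repressor, had 0.303 and 0.553 CPM in IR+Shh and 0.504 and 0.513 CPM in IR+Gli1, against 0.767 and 0.553 CPM in IR+GFP. It had 0.543 and 0.757 CPM in IR and 1.10 and 0.879 CPM in NT. The NT samples were the highest. Those of IR+Gli1 lay below those of IR+GFP and IR, and those of IR+Shh overlapped IR+Gli1 and IR. Gli3 in IR against NT differed by -0.62 ± 0.41 (SE; edgeR adjusted p = 0.471). The span of Gli3 shares 502 bases with that of the antisense transcript Gm6556. Whether these bases lie in exons of Gli3 was not tested. Any reads there carry the same doubt about strand as those of Gli1.

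Within a sample, Gli2 had 32 reads beside 16 of Gli3 and 16 beside 14 in IR, against 6 beside 30 and 12 beside 29 in NT. Gli2 took 66.7% (51.6 to 79.6) and 53.3% (34.3 to 71.7) of the reads of both genes in IR, against 16.7% (6.37 to 32.8) and 29.3% (16.1 to 45.5) in NT, with 95% exact binomial intervals. The Gli2 to Gli3 ratio was 1.38 ± 0.0673 in IR+Shh, 0.946 ± 0.0758 in IR+Gli1, 1.86 ± 0.511 in IR+GFP and 1.57 ± 0.606 in IR, against 0.307 ± 0.151 in NT (SD, n = 2 each). All 8 irradiated samples were above both NT samples. The ratio rests on few reads, 6 to 32 of Gli2 per sample.

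**Figure D3:**
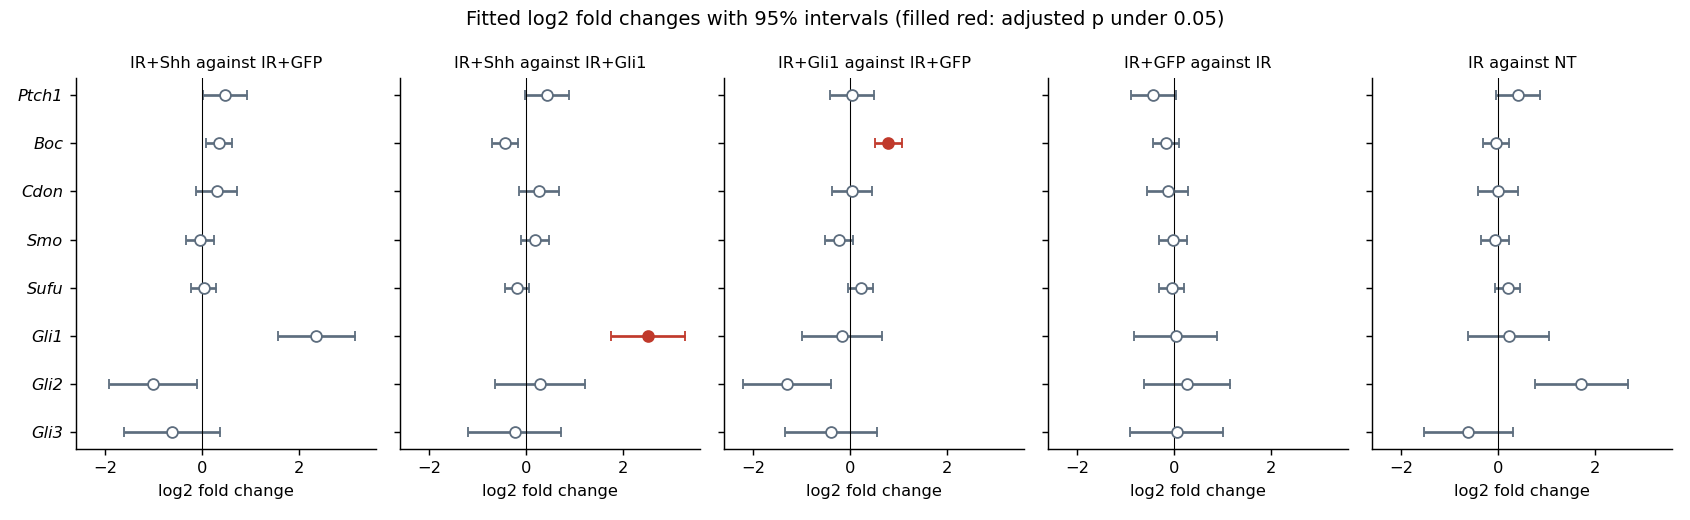
Fitted log2 fold changes (horizontal axes) of the 8 tested genes in the 5 comparisons, with 95% intervals; filled red points passed an adjusted p of 0.05 in edgeR's quasi-likelihood test. Those are Gli1 in IR+Shh against IR+Gli1 (2.53) and Boc in IR+Gli1 against IR+GFP (0.79).

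Taking the 8 tested genes by comparison, 0 were called in IR+Shh against IR+GFP, beside 0.0% of all 14300 genes, and 4 had an unadjusted p under 0.05 (Gli1, Gli2, Ptch1 and Boc) beside 6.1% of all genes. DESeq2 called 35 genes there, Gli1 among them. The median log2 fold change of the 8 genes was 0.17, beside 0.001 over all genes. In IR+Shh against IR+Gli1, 1 of 8 was called beside 7.76% of all genes, 2 had an unadjusted p under 0.05 beside 26.4%, and the median was 0.23 beside -0.02 over all genes. In IR+Gli1 against IR+GFP, 1 of 8 was called beside 13.9% of all genes and 2 had an unadjusted p under 0.05 beside 29.5%, with a median of -0.06 beside 0.005. The shares of 1 in 8 are near these backgrounds, so a call by itself does not set the genes apart.

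The controls gave no call among the 8. In IR+GFP against IR, 0 were called beside 0.0% of all genes, 0 had an unadjusted p under 0.05 beside 298 of all genes (2.08%), and DESeq2 called 8 genes in all and none of the 8. The largest difference there was Ptch1, at -0.43 ± 0.21 (SE) with a 95% interval of -0.89 to 0.03. In IR against NT, 0 of 8 were called beside 0.678% of all genes, and Gli2 alone had an unadjusted p under 0.05, beside 17.5% of all genes. DESeq2 called none of the 8 in that comparison, and the medians were 0.10 for the 8 and -0.02 for all genes.

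The other genes of the pathway were taken in 5 lists of 57 genes, of which 45 were tested. None passed in IR+Shh against IR+GFP, in IR+GFP against IR or in IR against NT. In IR+Gli1 against IR+GFP, 2 rose and 1 fell, beside 13.9% of all genes called, and in IR+Shh against IR+Gli1, 3 rose and 2 fell, beside 7.76%. Scaling by total gene reads, which puts the median of all genes at 0.79 in IR+Gli1 against IR+GFP and at -0.67 in IR+Shh against IR+Gli1, moved most of these genes with it. The median log2 fold changes of the 45 were 0.05 in IR+Shh against IR+GFP, 0.004 in IR+Shh against IR+Gli1 and 0.03 in IR+Gli1 against IR+GFP.

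Among 9 genes for ligands and their release, 5 were tested and none passed. Scube1, a secreted protein related to the ligand-releasing Scube2, had 0.823 and 0.848 CPM in IR+Shh against 0.171 and 0.307 CPM in IR+GFP. The log2 difference was 1.83 ± 0.74 (SE, edgeR adjusted p = 0.808). NT samples, at 0.273 and 1.10 CPM, lay on both sides of those of IR+Shh. Disp2, a relative of the ligand exporter Disp1, averaged 0.0184 CPM in IR+Shh and 0.187 CPM in IR+Gli1, against 0.0734 CPM in IR+GFP. Among 3 tested of 4 other receptors and co-receptors, Gpc3, a cell-surface glypican that competes with Ptch1 for ligand, averaged 0.955 ± 0.370 CPM in IR+Shh and 0.286 ± 0.0985 CPM in IR+Gli1 (SD, n = 2 each). Gpc3 was higher by 1.79 ± 0.46 in IR+Shh against IR+Gli1 (edgeR adjusted p = 0.0479; 1.17 with total reads, adjusted p = 0.0577). In IR+GFP it was at 0.724 ± 0.242 CPM, and in IR+Gli1 against IR+GFP it differed by -1.41 (adjusted p = 0.0827).

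All 12 ciliary transducers were tested. Tulp3, which carries receptors into the cilium, averaged 10.4 ± 0.648 CPM in IR+Gli1 against 6.31 ± 0.726 CPM in IR+GFP, and rose by 0.72 ± 0.15 on the log2 scale (edgeR adjusted p = 0.0158). In IR+Shh it was at 6.29 ± 0.296 CPM, 0.72 ± 0.15 lower than in IR+Gli1 (adjusted p = 0.0260). Ift172, a part of the transport machinery of the cilium, was at 17.8 ± 0.0894 CPM in IR+Shh against 13.2 ± 0.329 CPM in IR+Gli1, and was higher by 0.43 ± 0.11 (adjusted p = 0.0430), turning to -0.22 with total reads, 0.45 above the median of all genes.

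All 12 kinases and proteolysis factors acting on Gli proteins were tested. Cul3, the cullin of the ligase that degrades Gli proteins through Spop, averaged 66.5 ± 1.80 CPM in IR+Gli1 against 95.9 ± 8.23 CPM in IR+GFP, and fell by 0.53 ± 0.10 (edgeR adjusted p = 0.0108), turning to 0.26 with total reads, 0.54 below the median of all genes. It was at 90.5 ± 7.56 CPM in IR+Shh, higher than in IR+Gli1 by 0.45 ± 0.10 (adjusted p = 0.0318), turning to -0.20 with total reads. Of 20 other target genes, 13 were tested. Ccnd2, a cyclin of the G1 phase, averaged 13.2 ± 3.11 CPM in IR+Gli1 against 7.02 ± 0.160 CPM in IR+GFP, and rose by 0.92 ± 0.19 (adjusted p = 0.0134). In IR+Shh it was at 7.36 ± 0.230 CPM, differing from IR+Gli1 by -0.85 ± 0.18 (adjusted p = 0.0285).

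The likeness of other genes to Gli1 was described by Pearson's r over the 10 samples, on log2(CPM + 0.5), among 11959 genes with a mean of at least 1 CPM. The samples of a group share their treatment and IR+Shh sets the range, so r describes that split and carries no test. Heyl, a transcription factor of the Notch pathway, came first with r = 0.966, at 2.30 and 3.80 CPM in IR+Shh and 0.360 to 0.881 CPM in the other samples. Filip1 (r = 0.912), Pcf11 (0.904), Cdk5rap2 (0.883) and Gfra2, a receptor of the GDNF family (0.875), followed. Ptch1 came 382nd with r = 0.603, Cdon had r = 0.404, and Boc, Sufu and Smo lay between 0.0149 and 0.0903.

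**Figure D4:**
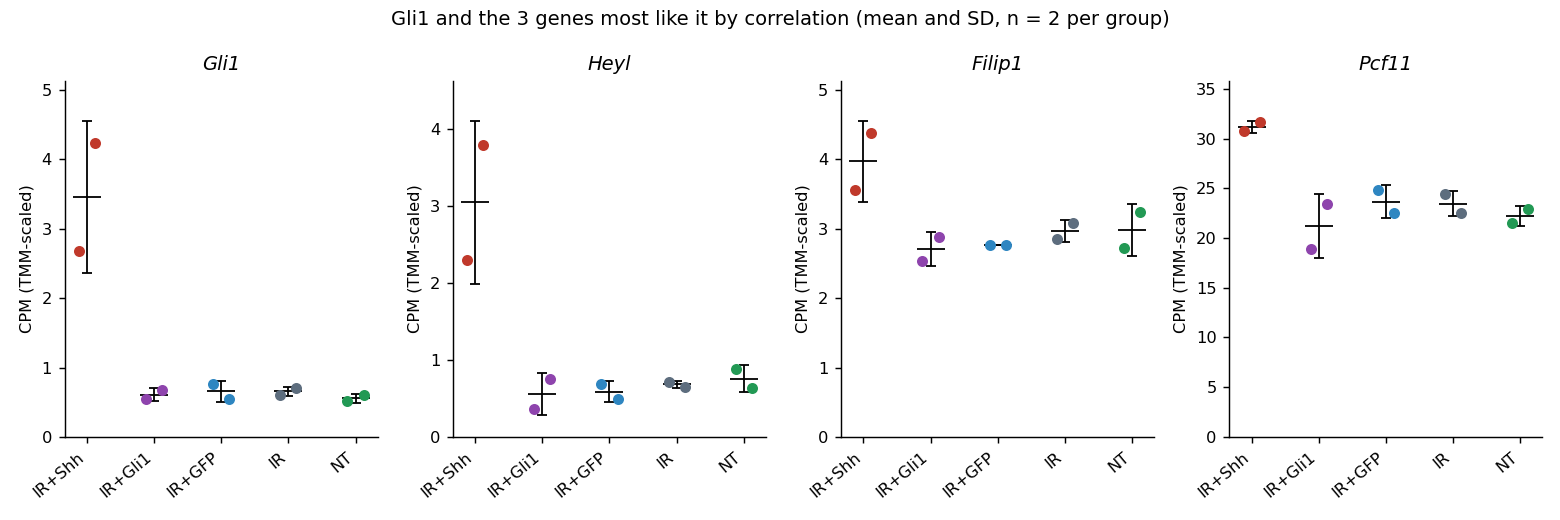
Levels of Gli1, Heyl, Filip1 and Pcf11 in CPM (TMM-scaled, vertical axes from 0) by group; points are the 2 samples of a group, bars are means and whiskers are 1 SD, drawn no lower than 0. In all 4 panels both IR+Shh samples lie above the other 8 samples.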

How the data were processed

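Each of 15 libraries was made from 1 ug of total RNA of submandibular gland with Illumina's TruSeq RNA reagents, per the labels' protocols. In the deposited tables, 1 for each library, values are raw read counts by Ensembl gene. Per the submitters' processing notes, the tools of the authors were TopHat2 2.0.13, Bowtie 0.12.2, DESeq2 and HTSeq 0.10.0, with the builds mm10 and GRCm38; strand mode and annotation release are not given in the sources used here. The last lines of each table, 6.98% to 13.9% of its reads, count reads given to no gene, among them reads with several alignments; they were left out.

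Symbols came from GENCODE vM21, which named 96.2% of genes. Libraries of a group with a chi-square per gene under 1 (genes with at least 20 reads) were combined by the rounded mean of their counts: IR+Shh 1+3, IR+Gli1 1+2, IR+GFP 1+2, IR 1+2 and NT 2+3. All 10 samples were fitted in edgeR 4.0.16 (R 4.3.3; filterByExpr, TMM, robust quasi-likelihood, 5 residual degrees of freedom), with two-sided tests adjusted by Benjamini-Hochberg over 14300 genes and a threshold of 0.05. Of the 9 genes, 8 passed the filter. The fit was tested on simulated data. Intervals are at 95%, and a count of 0 was given a limit of 3 reads.

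The genes and lists were chosen with earlier results of these data known. A gene of these lists that is counted with them is not reported singly here. All 9 were named, with up to 4 per list of other pathway genes by smallest adjusted p among those that passed in IR+Shh, otherwise the 2 of smallest p, and the 5 genes most like Gli1. Alternatives were other scalings, no filter, DESeq2 1.42.0, the 15 libraries apart with a replicate block, IR and IR+GFP together as the control, and each sample left out. After seeing the data, the deeper library of each pair, the 15 libraries without a replicate term, and leaving out IR+GFP 3 with IR+Gli1 3 were added. Library numbers were not taken to pair libraries between groups.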

Additional observations from a re-analysis of the deposited data

How the results depend on the processing

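Gli1 was higher in IR+Shh than in IR+GFP under each of 19 alternatives, with 5 past the threshold, and higher than in IR+Gli1 under each of 18, with 16 past it; Boc was higher in IR+Gli1 than in IR+GFP under each of 19, with 18 past it. Among these alternatives are the fits of the 15 libraries apart, which count near-identical libraries as separate. Few reads limit Gli2, Gli3 and Hhip, and 2 samples per group limit every test.

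Counts of called genes moved by setting, and the cause was not tested unless the setting itself changes what is compared. DESeq2 called 35 genes in IR+Shh against IR+GFP (1 of the 9 genes), 489 in IR against NT and 8 in IR+GFP against IR. Without the low-count filter, 435 genes and 1 of the 9 passed in IR+Shh against IR+GFP, 2639 and 2 in IR+Shh against IR+Gli1, 1242 and 1 in IR against NT, and 210 genes in IR+GFP against IR. Scaling by total gene reads, which moves the median of all genes, gave 9745 genes (9656 higher, 89 lower; with TMM 1177 and 816) and 5 of the 9 in IR+Gli1 against IR+GFP, and 8088 (84 higher, 8004 lower; with TMM 395 and 714) and 3 in IR+Shh against IR+Gli1. With IR and IR+GFP together as the control, 3607 genes and 2 of the 9 passed for IR+Gli1, and 4 genes and 1 for IR+Shh. Without IR+GFP 3 and IR+Gli1 3, the libraries with the highest shares of reads with several alignments, 311 genes passed in IR+Gli1 against IR+GFP and 2392 genes and 2 of the 9 in IR+Shh against IR+Gli1, with 2 genes in IR+Shh against IR+GFP.

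The 15 libraries fitted apart count near-identical libraries as separate. With the replicate block, 433 genes and 3 of the 9 passed in IR+Shh against IR+GFP, 6092 and 3 in IR+Shh against IR+Gli1, 6496 and 3 in IR+Gli1 against IR+GFP, and 4048 and 4 in IR against NT. Without that block the counts were 538 and 2, 6065 and 4, 6518 and 4, and 4154 and 4, with 5 genes in IR+GFP against IR. Same-numbered libraries deviated together (r over 0.1) in 3 of 30 pairs, r ranging between -0.0872 and 0.527, and the best correlation was with the same number for 6 of the 15, so the numbers give no pairing.

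Leaving out 1 sample at a time, with the sample left alone in its group taken to vary like the other groups, gave 0 to 2286 genes and 0 to 2 of the 9 in IR+Shh against IR+Gli1, 91 to 2987 and 0 to 1 in IR+Gli1 against IR+GFP, 0 to 1 genes in IR+GFP against IR, and 9 to 538 genes in IR against NT. For the 8 tested genes, signs turned only among log2 differences that had not passed. Among the other pathway genes, Ift172 and Cul3 passed and turned with total reads, as given above. Leaving out 1 sample gave -0.17 to 0.11 for Smo and -0.0241 to 0.12 for Sufu in IR+Shh against IR+GFP. It gave -0.73 to 0.12 for Gli3 and -0.13 to 0.62 for Gli2 in IR+Shh against IR+Gli1, and -0.36 to 0.11 for Gli1, -0.19 to 0.27 for Cdon and -0.18 to 0.24 for Ptch1 in IR+Gli1 against IR+GFP. In IR+GFP against IR it gave -0.24 to 0.23 for Gli1, -0.21 to 0.29 for Gli3, -0.16 to 0.12 for Smo, -0.38 to 0.0866 for Cdon and -0.12 to 0.0160 for Sufu, and in IR against NT -0.17 to 0.18 for Cdon. Total-read scaling turned Smo in IR+Shh against IR+GFP to 0.11; Gli2, Ptch1, Smo and Cdon in IR+Shh against IR+Gli1 to -0.34, -0.19, -0.44 and -0.38; and Gli1, Gli3 and Smo in IR+Gli1 against IR+GFP to 0.63, 0.41 and 0.55. Ptch1 in IR+Gli1 against IR+GFP turned to -0.0461 with the replicate block and -0.0477 without it over the 15 libraries, to -0.19 (and Cdon to -0.0350) with IR and IR+GFP together, and to -0.22 without IR+GFP 3 and IR+Gli1 3. The last setting also turned Smo to 0.11 and Sufu to -0.0237 in IR+Shh against IR+GFP and Sufu to 0.0150 in IR+GFP against IR. The deeper library of each pair turned Cdon in IR against NT to 0.0221.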
